A study of Homo sapiens with 4 samples.

Results

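RNA of cells given 1 µM neobractatin (NBT) together with 5 µM trametinib for 12 h was compared with RNA of cells left without either drug. NBT is a natural compound of Garcinia bracteata, and trametinib inhibits MEK, the kinase that activates ERK in the MAPK cascade. Genes entered the comparison when at least 1 of the 2 libraries held 50 estimated reads, which was the case for 11207 of 16834 genes in the table. Each side was 1 library, so every difference is a description of 2 libraries, without a test and without a replicate check. The study asked which RNAs change when both drugs are given to pancreatic cancer cells. It also sequenced 1 library with 1 µM NBT alone and 1 with 5 µM trametinib alone, and these are quoted beside the comparison. All 4 samples are titled MIA PaCa-2, a human pancreatic carcinoma line, labelled as wild type and grown in RPMI-1640 with serum. The cell line field of the labels, however, counts up from MIA PaCa-2 in the control to MIA PaCa-5 in the combination, and the protocol in the labels describes removal of bacterial ribosomal RNA.

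The sums of the estimated reads ran from 18776212 in the control to 19614763 in the combination library, so 3 reads, the number used for bounds against 0, corresponded to 0.16 and 0.153 CPM (counts scaled to library size). Reads were rounded, scaled to these sums and compared as a log2 ratio of combination over control after adding 0.5 reads. A gene is called higher or lower below when it differed at least 2-fold, a log2 ratio of at least 1 in size. The 95% interval given with a ratio is exact and binomial (Clopper-Pearson), and it covers counting error alone: how much separate cultures vary is unknown here. Reads in a bulk library cannot tell fewer cells of a kind from less RNA per cell.

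The labelled cell line was set against its known marker genes, and the markers went against it in all 4 libraries. MIA PaCa-2 is known for a homozygous loss of CDKN2A and its neighbour MTAP, for abundant vimentin (VIM) and for the absence of E-cadherin (CDH1). CDKN2A, a cyclin-dependent kinase inhibitor, had 2643 estimated reads in cells without drug, 2674 after NBT, 3524 after trametinib and 3187 after both. Wherever 4 values follow each other below, they stand in this order. MTAP had 1148, 1151, 840 and 815 reads, and CDH1 had 3912, 2539, 4086 and 2804. In every library there were thus reads of 2 genes that the named line has lost, CDKN2A and MTAP, and of CDH1, whose product it is known to lack. VIM stood at 202, 249, 425 and 500 reads, 11.48 TPM in the control and 26.39 in the combination. Several genes of stratified epithelium, from a list of 13 chosen for this check after the data were seen, were abundant. In TPM, KRT5 was at 1179.51 in the control and 1079.01 in the combination, SFN at 711.68 and 1284.85, and S100A2 at 605.3 and 415.73. The transcription factor TP63 was at 35.22 and 34.89. Not all members were high: KRT16 was under the read minimum, and KRT15 had 651 reads in the control and 102 in the combination. Of the factors of pancreatic epithelium, GATA6 was measured, at 6.03 and 5.35 TPM, whereas HNF4A, with 16 reads and 5 reads, was under the read minimum. The libraries are therefore called by their labels here, as libraries labelled MIA PaCa-2, and no other line is named. Of 18 markers of blood, stromal, endothelial, exocrine and endocrine cells, 11 had a row, and CD68 (2054 and 1695 reads) and COL1A1 (45 and 53 reads) reached the read minimum. PTPRC, the pan-leukocyte marker, had 8 and 15 reads, CD3E of T cells 0 and 29, PECAM1 of endothelium 21 and 26, and COL1A2 of fibroblasts 0 and 2.

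**Figure D1:**
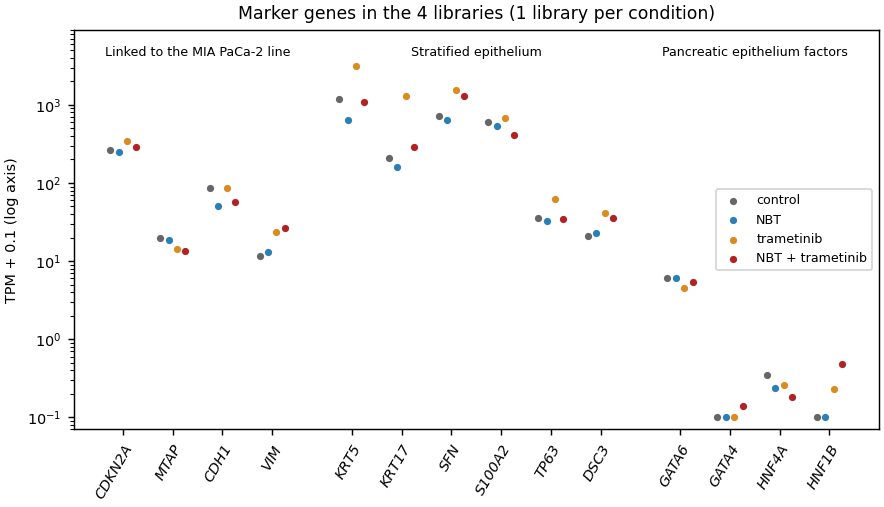
TPM plus 0.1 (log axis) of marker genes in the 4 libraries, 1 point per library. CDKN2A, MTAP and CDH1 are present in every library, from 13.16 TPM upwards. The genes of stratified epithelium drawn here, a part of their list, lie at 20.86 TPM or more. Of the pancreatic factors drawn, GATA6 alone exceeds 1 TPM.

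Several signalling systems meet in this comparison. ERK raises the transcription of growth genes such as cyclin D1 and of its own brakes, the DUSP, Sprouty and SPRED genes, so their RNA follows the activity of the cascade. Unfolded protein in the endoplasmic reticulum (ER) is sensed by IRE1, PERK and ATF6. IRE1 cuts a short stretch from XBP1 RNA, which shifts the reading frame to that of an active transcription factor. PERK raises translation of ATF4, which with CHOP (encoded by DDIT3) acts on genes of amino acid supply, and ATF6 and XBP1 act on ER chaperone genes. NRF2 acts on genes of glutathione, thioredoxin, heme and iron handling when cells meet oxidants or electrophiles.

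The XBP1 stretch is shown because the libraries differed in how many reads were assigned to the form that lacks it. In GENCODE v29 (GRCh38) it lies at chr22:28796128-28796153 on the minus strand, in coding exon 4 of the 5 exons of XBP1, and both sequences below run 5′ to 3′ with the 26 removed bases in capitals.
XBP1 with the stretch (NM_005080): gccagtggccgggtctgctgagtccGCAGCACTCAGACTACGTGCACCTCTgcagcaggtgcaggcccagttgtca
XBP1 without the stretch (NM_001079539): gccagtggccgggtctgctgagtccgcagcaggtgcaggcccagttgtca
Because the bases on both sides repeat, 7 placements of the 26 bases give the same product, and the capitals mark the one nearest the 5′ end.

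Promoters were searched because many genes of ER folding, amino acid supply, glutathione and DNA replication were higher or lower together. RefSeq sequences (GRCh38.p14) from 250 bases before to 50 after the start were matched to 9269 of the 11207 genes (82.7%), and each motif was sought on both strands. The ER stress element was searched as CCAAT and CCACG with 9 unfixed bases between them, here in capitals, and is shown for 3 genes that were higher in the combination and for CALR, which had a log2 ratio of 0.36.
HSPA5 (chr9:125241356-125241444, minus strand): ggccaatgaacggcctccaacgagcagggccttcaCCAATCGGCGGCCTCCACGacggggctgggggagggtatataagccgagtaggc
HSP90B1 (chr12:103930181-103930374, plus strand): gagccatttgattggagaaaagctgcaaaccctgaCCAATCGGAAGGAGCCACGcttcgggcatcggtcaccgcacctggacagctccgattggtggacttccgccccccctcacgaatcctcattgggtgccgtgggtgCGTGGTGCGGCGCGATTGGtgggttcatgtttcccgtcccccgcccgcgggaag
XBP1 (chr22:28800568-28800656, minus strand): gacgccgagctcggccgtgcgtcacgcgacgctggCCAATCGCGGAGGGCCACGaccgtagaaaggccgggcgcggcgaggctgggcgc
CALR (chr19:12938359-12938437, plus strand): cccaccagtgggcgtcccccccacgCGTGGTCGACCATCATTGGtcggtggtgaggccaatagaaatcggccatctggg
Where the capitals begin with CGTGG the element lies on the other strand, and the match nearest the start began 66 bases upstream in HSPA5, 89 in HSP90B1, 52 in XBP1 and 225 in CALR.

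The element to which C/EBP and ATF4 heterodimers bind was searched as TGATGNAA and is shown in capitals for genes of asparagine synthesis (ASNS), glutathione breakdown (CHAC1) and alanine charging of tRNA (AARS1).
ASNS (chr7:97872434-97872511, minus strand): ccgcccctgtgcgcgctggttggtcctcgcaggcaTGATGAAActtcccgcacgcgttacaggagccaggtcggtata
CHAC1 (chr15:40953227-40953304, plus strand): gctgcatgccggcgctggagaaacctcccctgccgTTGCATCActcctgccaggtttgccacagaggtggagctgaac
AARS1 (chr16:70289651-70289728, minus strand): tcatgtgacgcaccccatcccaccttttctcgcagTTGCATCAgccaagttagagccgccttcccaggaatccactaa
The antioxidant response element, searched as TGACNNNGCA, is shown for GCLM, the modifier subunit of the enzyme that starts glutathione synthesis.
GCLM (chr1:93909421-93909500, minus strand): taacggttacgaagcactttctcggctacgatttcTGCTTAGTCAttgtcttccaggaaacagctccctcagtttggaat
The E2F element, searched as TTTNNCGC, is shown for PCNA, the sliding clamp of the replication fork, and MCM6, a subunit of the replicative helicase, in which each capital run is matched on both strands and overlaps itself.
PCNA (chr20:5126639-5126716, minus strand): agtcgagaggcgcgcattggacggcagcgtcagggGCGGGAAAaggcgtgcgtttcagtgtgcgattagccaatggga
MCM6 (chr2:135876487-135876630, minus strand): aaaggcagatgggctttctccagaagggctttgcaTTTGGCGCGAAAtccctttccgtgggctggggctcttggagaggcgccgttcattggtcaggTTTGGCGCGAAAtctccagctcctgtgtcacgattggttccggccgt

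Of the 11207 genes, 511 were at least 2-fold higher in the combination library (4.56%) and 458 at least 2-fold lower (4.09%), together 969 genes or 8.65%. The other 10238 genes (91.4%) differed less, and the median log2 ratio of all genes was 0.02. The 1st and 99th percentiles of the log2 ratio were -1.80 and 1.89, and 101 genes were at least 4-fold higher and 81 at least 4-fold lower. The 511 higher genes held 1.98% of the reads in the control and 6.79% in the combination library, whereas the 458 lower genes went from 5.32% to 1.88%. By counting error alone, the interval lay wholly above 0 for 4153 genes and wholly below 0 for 3888. It lay wholly past 2-fold for 317 higher and 289 lower genes. The interval leaves out error in dividing reads between genes. Every count of genes below is to be read against the shares of 4.56% higher and 4.09% lower, and every median against 0.02. The gene lists were chosen with earlier results of these data known, so this comparison is a description and cannot serve as a test.

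**Figure D2:**
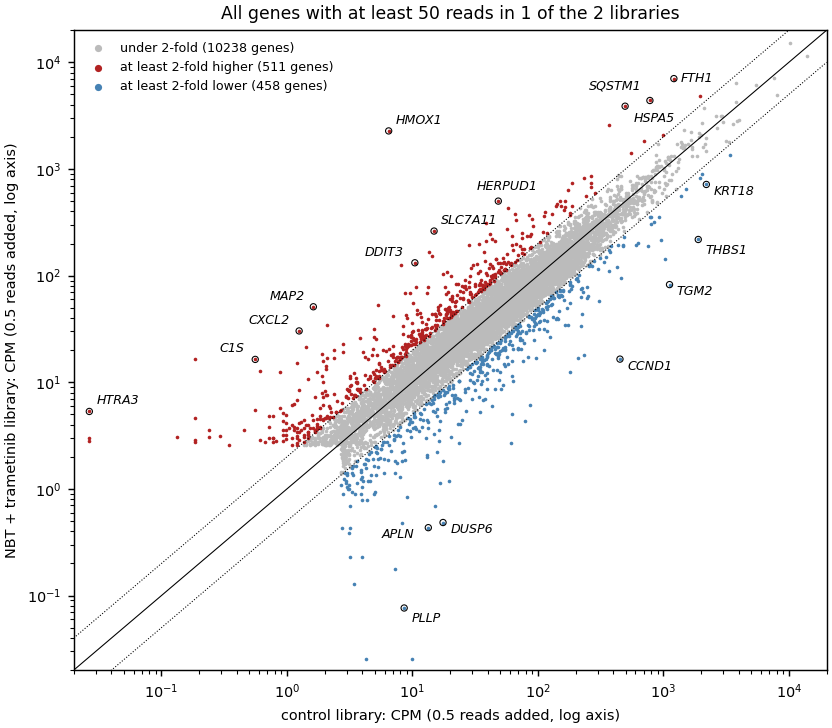
CPM in the control library (x axis) and in the NBT plus trametinib library (y axis), both log axes with 0.5 reads added, 1 point per gene. The solid line marks equal values and the dotted lines 2-fold, 511 genes lie above and 458 below the dotted lines, and HMOX1 stands far from the diagonal with 121 reads in the control and 44631 with both drugs.

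By size of difference, HMOX1 stood first among the higher genes with at least 100 reads in the higher library, followed by HTRA3, LURAP1L, MAP2, C1S, CXCL2, LCN2, SLC7A11, ZSCAN31, HSPB8, BEST1, ADM2, KIAA0319, DDIT3, GABARAPL1, SESN2, HERPUD1, GDF15, PANX2 and MMP3. HTRA3, a secreted serine protease gene, had 0, 6, 1 and 104 reads. It was 33.2-fold higher with the control set at the bound of 3 reads, and at least 26.51-fold higher at the lower end of the 95% interval, which covers the counting error of both libraries. LURAP1L had 3, 50, 13 and 325 reads, a ratio whose interval ran from 35.17-fold to 505.5-fold. LCN2, which encodes the iron-siderophore binding protein lipocalin 2, had 11, 69, 27 and 248 reads (log2 ratio 4.37, interval from 3.57 to 5.45). ZSCAN31, a zinc finger gene, had 39, 64, 571 and 669 reads, so both libraries with trametinib were high. ADM2, which encodes a hormone of the calcitonin family, had 16, 136, 44 and 244 reads and was high in both libraries with NBT.

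The 20 largest falls began with BCL2L2-PABPN1, PLLP and LOC107987377 and also included DUSP6, APLN, CCND1, FGFBP1, IL1B, TNS4, GPR3, ETV5, FST, HAS3, EPHA2, TGM2, DUSP4, EMP1, SPRY4 and EVI2B. BCL2L2-PABPN1 is a read-through of 2 genes whose reads were divided between overlapping models, and its 0 reads in the combination are uncertain for that reason. PLLP, a myelin membrane protein gene, had 161, 156, 1 and 1 reads, with an interval from 29.76-fold to 6684-fold lower. TGM2, the tissue transglutaminase that cross-links proteins, had 21035, 13746, 4084 and 1616 reads, which left 7.36% of the scaled control value. FGFBP1, a carrier that releases FGFs from the matrix, had 1143, 195, 267 and 52 reads (log2 ratio -4.51, from -4.95 to -4.12). HAS3, a hyaluronan synthase, had 1629, 499, 284 and 119 reads. For these 3 genes the combination library was lower than each of the other libraries. TNS4, a focal adhesion protein gene, had 1484, 761, 90 and 85 reads, and EMP1, a membrane protein gene, 3946, 4570, 127 and 334. In these genes the trametinib library was close to the combination or lower.

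Measured as a gain in TPM, which weights abundant RNAs, the leading genes were those of the ferritin subunits: FTH1 stood at 2047.01 TPM in the control and 11563.54 in the combination, and FTL at 878.92 and 5974.11. HMOX1 went from 8.33 to 2865.79 TPM and SQSTM1, the autophagy receptor p62, from 545.06 to 2980.67. MTRNR2L2, MTRNR2L8 and MTRNR2L9, also among the 10 largest gains, are near-identical to mitochondrial ribosomal RNA, so their reads are uncertain. The largest losses in TPM included KRT8 (3799.23 to 1492.67), KRT18 (3141.54 to 995.27), FXYD5 (2223.77 to 491.65), PKM (2878.38 to 1507.57) and LDHA (1954.26 to 790.98). Metallothionein MT2A, which had 42517.39 TPM in the control, headed the losses with a log2 ratio of -0.12, a size well under 2-fold.

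Genes that report on MAPK output were lower throughout. Of 18 listed genes 16 had enough reads, and all 16 were at least 2-fold lower in the combination library, with a median log2 ratio of -2.59. DUSP6, the phosphatase that inactivates ERK, had 329, 521, 14 and 9 reads. CCND1 (NCBI Gene 595), which encodes cyclin D1, had 8472, 4693, 1315 and 323 reads, a log2 ratio of -4.77 (from -4.94 to -4.62). The receptor tyrosine kinase gene EPHA2 had 3371, 2413, 268 and 247 reads. The 2 libraries labelled with trametinib were lower than the other 2 for each of these genes, and what sets this was not tested. CCND1 was lower still with both drugs, and in DUSP6 and EPHA2 both trametinib-treated libraries lay close together. The ETS factor gene ETV5 went from 367 reads to 23 and the Sprouty gene SPRY4 from 169 to 16. FOSL1, an AP-1 subunit gene, had 11889, 12386, 1268 and 4000 reads, and IER3 4587, 5422, 410 and 1214, so here the combination lay between the control and the trametinib library. The AP-1 element, searched as TGANTCA on both strands of the same promoter windows, was in 0 of the 9 promoters of this list that were matched, and in 4.32% of those of all genes matched, 8.06% of those of higher genes and 5.83% of those of lower genes.

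The wider list of AP-1 and immediate early genes was mixed, with 1 gene higher, 2 lower and a median of -0.41 over 13 genes. EGR1, an immediate early transcription factor gene, had 802 reads in the control and 117 with both drugs, and ATF3 went the other way, as described with the stress factors. JUN had 2598 and 4619 reads (log2 ratio 0.77). Of 16 genes measured in the list of EGF ligands and receptor tyrosine kinases 1 was higher and 2 lower (median -0.35). The higher gene was AREG, another EGF receptor ligand gene, close to the limit with a log2 ratio of 1.02. The lower genes were TGFA and IRS1. TGFA, an EGF receptor ligand, had 1462, 1544, 490 and 456 reads, and the insulin receptor substrate gene IRS1 1569, 706, 505 and 340. MYC had 913, 1297, 170 and 586 reads (log2 ratio -0.70), and MXD1, which encodes a partner of MAX that opposes MYC, 433, 1314, 318 and 1631. Of the 10 genes of the MYC network measured, 2 were higher, MXD1 and MYCL, and 0 lower. MYCL lay close to the limit and fell short of 2-fold when 5 reads were added.

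ER chaperone and ER-associated degradation genes were higher in the combination library. Of 23 genes 14 were at least 2-fold higher, 0 were lower and the median log2 ratio was 1.18. HSPA5 (NCBI Gene 3309), which encodes BiP, the main ER chaperone, had 9310, 61352, 8012 and 76120 reads, a log2 ratio of 2.97, or 7.83-fold. HERPUD1, an organiser of ER-associated degradation, had 908, 6615, 1364 and 9808 reads, and DNAJB9, a BiP co-chaperone gene, 162, 756, 125 and 1349. Both libraries with NBT were high for these 3 genes, and the trametinib library lay nearer to the control. HYOU1 went from 4378 to 16117 reads, DNAJC3 from 877 to 2803, SEL1L, part of the degradation ligase, from 1349 to 3749 and HSP90B1, the ER form of HSP90, from 10432 to 27963. The calreticulin gene CALR, although its promoter holds the same element as that of HSPA5, had a log2 ratio of 0.36 (from 0.33 to 0.39), and the disulfide isomerase gene PDIA4 0.61.

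The sensors and transcription factors of the unfolded protein response gave 8 of 12 genes higher, 0 lower and a median of 1.50. DDIT3, which encodes the pro-apoptotic factor CHOP, had 196, 1298, 443 and 2589 reads, 12.6-fold over the control. ATF3 had 718, 1405, 2329 and 6091 reads, TRIB3, a pseudokinase gene downstream of CHOP, 1070, 4499, 1306 and 5426, and PPP1R15A, which encodes the subunit that directs dephosphorylation of eIF2α, 4977, 11332, 3171 and 14461. The combination library was the highest of the 4 for each, and the trametinib library was above the control for ATF3 in particular, at 2329 against 718 reads. Among the sensors, EIF2AK3 (PERK) had a log2 ratio of 1.53, ERN1 (IRE1) 0.97 and ATF6 0.83. ATF4, which is controlled largely at translation, went from 8712 to 13418 reads (0.56).

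XBP1 itself had 1411 reads in the control and 4910 in the combination library, and its forms differed in share. The reads assigned to the form without the 26 bases were 45 of the control library's (3.19%, Clopper-Pearson interval from 2.34% to 4.24%), 2608 with NBT (74.3%, from 72.8% to 75.8%), 55 with trametinib (3.39%, from 2.57% to 4.41%) and 3623 with both drugs (73.8%, from 72.5% to 75%). The share was thus high in both libraries with NBT and low in both without. The form that keeps the bases stood at 79.96 TPM in the control and 70.21 in the combination, while the form without them went from 2.67 to 200.65 TPM. These shares come from the estimation that divides reads between transcripts. Among 9141 genes with 200 reads or more in both libraries, 893 (9.77%) had a transcript whose share moved by at least 25 points. Only 7588 of the 9141 had more than 1 transcript, and the share of the others cannot move. XBP1, with 70.6 points, ranked 16th by the size of the shift. The 5 largest shifts were those of S100A14, SCN8A, ZNF197, KIAA1549 and EXOC2, for example from 0% to 99.98% of the gene's reads for 1 transcript of SCN8A. What sets those shifts was not tested.

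**Figure D3:**
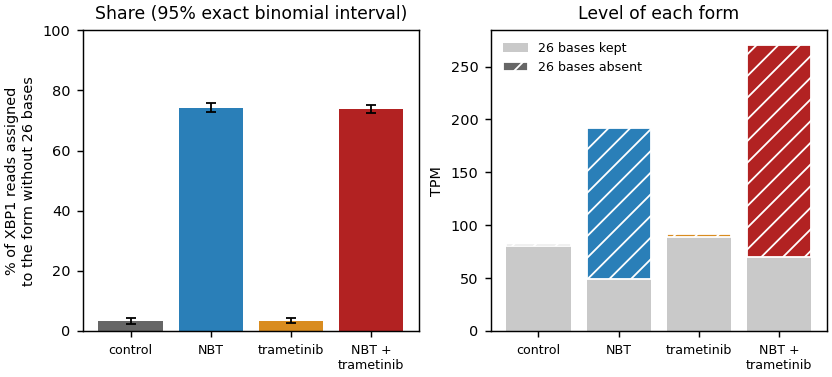
Left, the percentage of XBP1 reads assigned to the form without the 26 bases in each library, with 95% exact binomial intervals that cover counting error. Right, TPM of both forms, stacked; the share is 74.3% and 73.8% in the libraries with NBT and 3.19% and 3.39% in those without.

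The ER stress element was present in the promoters of 14 of the 9269 genes matched (0.151%) and of 22 of all 27305 promoters (0.0806%). Of the 14 genes 8 were at least 2-fold higher, namely CANX, CRELD2, HSP90B1, SERP1, ERO1B, XBP1, FICD and HSPA5, 0 were lower, and the other 6 had log2 ratios from 0.14 (EIF2A) to 0.82 (TRIM5). FICD, an enzyme that modifies BiP, had a log2 ratio of 2.76, and SERP1, a translocon-associated protein gene, 1.54. The element was found in 1.9% of the 422 higher genes matched and in 0% of the 343 lower ones.

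Genes of amino acid synthesis were higher in 7 of 12 cases and lower in 0, with a median of 1.20. ASNS, asparagine synthetase, had 1590, 6701, 2734 and 7217 reads (log2 ratio 2.12, from 2.04 to 2.20). CTH, which makes cysteine from cystathionine, had 251, 932, 620 and 1542 reads, and PCK2, the mitochondrial phosphoenolpyruvate carboxykinase, 352, 1439, 981 and 2138. All 3 were above the control in each drug library. In the serine and one-carbon branch PSAT1 had a log2 ratio of 1.68, MTHFD2 1.60, PHGDH 0.99 and SHMT2 0.43, and ALDH18A1 of proline synthesis had -0.24.

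Of 10 amino acid transporter genes 3 were higher, 0 lower, and the median was 0.58. SLC7A11, the cystine importer, had 279, 2491, 739 and 5136 reads, 17.6-fold over the control with both drugs. SLC6A9, a glycine transporter gene, had 326, 1107, 1023 and 2039 reads, and SLC1A4 531, 1208, 865 and 1698. SLC3A2, the partner chain that SLC7A11 and SLC7A5 need at the membrane, went the other way without passing 2-fold, with 16603, 7047, 27310 and 9655 reads (log2 ratio -0.85), and SLC7A5 had 67239 reads in the control and 51305 in the combination (-0.45). Both were lower in the 2 libraries with NBT than in the 2 without.

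Cytosolic tRNA synthetase genes gave 4 of 20 higher and 0 lower (median 0.48): SARS1 (2807 to 9929 reads), WARS1 (3036 to 8141), GARS1 (4955 to 13214) and AARS1 (4542 to 11014). CARS1 lay at the limit, with a log2 ratio of 1.00 before rounding just under it. The C/EBP-ATF element was found in 6 of 16 synthetase promoters matched (37.5%), those of TARS1, NARS1, MARS1, IARS1, CARS1 and AARS1. Of these genes AARS1 alone was at least 2-fold higher, and the lowest log2 ratio was 0.41 (TARS1). The element was in 1.59% of all genes matched, 3.32% of the higher and 1.46% of the lower ones, and 3.67% of all promoters of the table. SESN2, a stress-induced inhibitor of mTORC1, had 267, 2015, 476 and 2981 reads, whereas the other 10 genes measured of the list of mTOR and its stress inhibitors had log2 ratios under 1 in size, among them DDIT4 with 0.49 and MTOR with -0.14.

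NRF2 target genes included the largest rise of the comparison. Of 21 genes 11 were higher, 0 lower, and the median log2 ratio was 1.42. HMOX1 (NCBI Gene 3162), heme oxygenase 1, had 121, 4825, 382 and 44631 reads, a log2 ratio of 8.46 (from 8.21 to 8.73) or 352-fold. The catalytic and modifier subunits of glutamate-cysteine ligase followed, GCLC with 1088, 2791, 1497 and 8518 reads and GCLM with 1245, 4658, 1730 and 7423. The combination library was the highest of the 4 for these 3 genes, and the trametinib library the nearest to the control. In the thioredoxin branch TXNRD1 had a log2 ratio of 1.99 and SRXN1 1.93, while NQO1, a widely used NRF2 reporter, had 4956, 7541, 7267 and 9052 reads and stayed at 0.81. The antioxidant response element was found in 2.75% of the genes matched, 6.87% of the higher and 1.75% of the lower genes, and within the list in the promoter of GCLM alone of 13 matched.

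Iron and ferroptosis genes gave 6 of 15 higher and 1 lower, with HMOX1, FTH1, FTL, BLVRB, CHAC1 and AIFM2 on the higher side and STEAP3 on the lower. FTH1, the ferritin heavy chain, had 22786, 62854, 38760 and 138087 reads, and FTL, the light chain, 6983, 15244, 12998 and 50832. FTH1 has many processed pseudogenes that can share its reads. CHAC1 had 93, 492, 187 and 616 reads and BLVRB, which reduces biliverdin, 491, 785, 1144 and 1566. The transferrin receptor gene TFRC, which takes iron up, went the other way with 19765, 15994, 16131 and 10890 reads (log2 ratio -0.92), and STEAP3, an endosomal iron reductase, had 1795, 1227, 2016 and 928 (-1.01).

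Heat shock genes of the cytosol divided. Of 18 measured 5 were higher and 0 lower, and the median was 0.15. HSPB8, a small heat shock protein of chaperone-assisted autophagy, had 153, 339, 875 and 2445 reads (15.3-fold), and HSPB1 4946, 6471, 18316 and 16947, so HSPB1 was as high with trametinib alone. HSPA1A and HSPA1B, near-identical genes whose reads cannot be fully told apart, went from 2118 to 7103 and from 3273 to 12405 reads, and DNAJB4 from 203 to 932. Among 10 mitochondrial chaperones and proteases the protease gene LONP1 was higher (3365 to 7504 reads), HSPA9 had a log2 ratio of 0.97, and HSPD1 had -0.29. Of 7 metallothionein and zinc genes 2 were higher and 1 lower: MT1F (692, 1231, 1534 and 3252 reads), the zinc exporter gene SLC30A1 (243, 501, 504 and 1357) and, on the lower side, the zinc importer gene SLC39A10 (431, 235, 163 and 80).

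Autophagy and lysosome genes gave 5 of 21 higher and 0 lower, with a median of 0.41. GABARAPL1, an ATG8-family gene, had 252, 999, 778 and 3245 reads (12.3-fold), MAP1LC3B, which encodes LC3B, 810, 2978, 1165 and 4286, and SQSTM1 14676, 34880, 30287 and 86086. WIPI1 and ULK1, which act at the start of the autophagosome, had log2 ratios of 1.88 and 1.40. None of the 27 proteasome subunit genes passed 2-fold, but 26 of them had log2 ratios above 0, the median was 0.44 and the highest was PSMD14 at 0.88. Ribosomal protein genes were alike in this respect, with 0 of 25 past 2-fold, 24 above 0 and a median of 0.21. Genes of ribosome biogenesis lay on the other side: 1 of 24 was lower (UTP20, log2 ratio -1.20), 23 were below 0 and the median was -0.40.

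**Figure D4:**
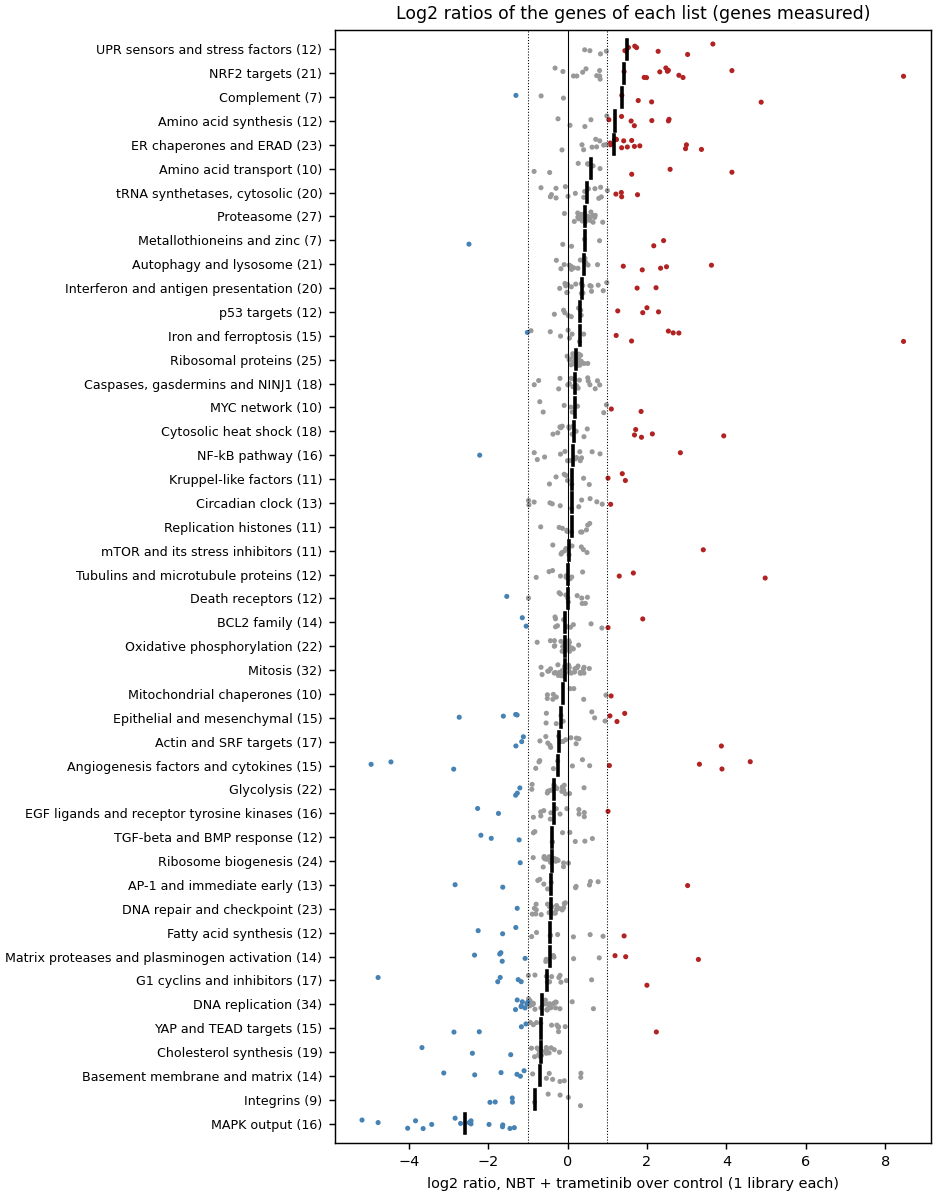
Log2 ratio of combination over control for each gene measured in 46 gene lists, ordered by the list's median (black bar); red points are at least 2-fold higher and blue points at least 2-fold lower. MAPK output lies lowest with a median of -2.59, and the UPR sensors and stress factors highest with 1.50.

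Genes of cholesterol synthesis leaned to the lower side. All 19 measured genes of cholesterol synthesis and uptake had log2 ratios below 0, with a median of -0.68, and 3 were at least 2-fold lower. Among them INSIG1, a sterol sensor gene, had 1025, 295, 1951 and 396 reads, low in both libraries with NBT. Of 12 genes of fatty acid synthesis 3 were lower, FASN (11279 to 3785 reads), the desaturase gene SCD (3080, 738, 6675 and 674) and ELOVL6 (1132 to 478), and 1 was higher, the NADPH-making malic enzyme gene ME1 (341 to 955).

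Of 22 glycolysis genes 20 had log2 ratios below 0, 3 were at least 2-fold lower and the median was -0.34. LDHA, lactate dehydrogenase A, had 37054, 25575, 33889 and 16065 reads (log2 ratio -1.27), the lactate exporter gene SLC16A3 had 689, 431, 431 and 290, and the glucose transporter gene SLC2A3 722, 749, 209 and 327. Pyruvate kinase PKM was at -0.89. Nuclear genes of oxidative phosphorylation showed 0 of 22 past 2-fold and a median of -0.06.

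Among the lists of G1, DNA replication and mitosis genes, members past 2-fold were in G1 and DNA replication, and 0 of them in mitosis. Of 17 genes of G1, 5 were lower (CCND1, CCND2, CCNE2, CDKN2D and E2F1) and 1 was higher, CDKN1A, which encodes the inhibitor p21. CCND2 had 6976, 4052, 2308 and 2151 reads, and E2F1, the transcription factor that drives S phase genes, 1061, 832, 996 and 341. CDKN1A had 550, 958, 1907 and 2294 reads (3.99-fold higher with both drugs). E2F1 was low in the combination alone among the 4 libraries, whereas CDKN1A was also high with trametinib alone.

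Of 34 DNA replication genes 32 had log2 ratios below 0 and 8 were at least 2-fold lower (MCM3, MCM4, MCM6, MCM10, CDT1, PCNA, POLE2 and TYMS), and the median was -0.65. MCM3, a helicase subunit gene, had 8888, 6378, 6542 and 3736 reads, CDT1, a licensing factor gene, 2163, 1460, 1882 and 1002, and PCNA 2706, 2182, 2874 and 1281. For each of them the combination library was the lowest of the 4. POLE2, at 277 and 144 reads, was at the limit of 2-fold and fell short of it when 5 reads were added. The E2F element was found in 18 of 30 replication promoters matched (60%), against 11% of all genes matched, 5.69% of the higher and 11.4% of the lower ones. All 23 genes of DNA repair and checkpoints had log2 ratios below 0 (median -0.43), and CLSPN, which links the replication fork to CHK1, was the 1 gene past 2-fold (1285 to 556 reads). In contrast, 0 of 32 mitosis genes passed 2-fold, 15 lay above and 17 below 0, and the median was -0.07. The 11 histone genes measured had 0 past 2-fold and a median of 0.10.

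The lists of cell death genes differed in how many members passed 2-fold. Of 12 p53 target genes 4 were higher, CDKN1A, GADD45A (382, 790, 701 and 1951 reads), BBC3, which encodes the BH3-only protein PUMA (83, 166, 171 and 323), and BTG2 (60 to 151), and the median was 0.30. MDM2, FAS and BAX, which p53 also controls, had log2 ratios of 0.27, 0.02 and -0.10. In the BCL2 family 2 of 14 genes were higher, BBC3 and HRK (145 to 307 reads), and 2 lower, the survival gene BCL2L1 (2982, 3802, 1311 and 1411 reads) and BCL2 (121, 124, 59 and 61). BCL2L1 and BCL2 were lower in both libraries with trametinib. BCL2 and HRK lay close to the limit, with log2 ratios of -1.05 and 1.02. The list of caspases, gasdermins and NINJ1 also holds APAF1, XIAP, BIRC2, BIRC3, DIABLO and CYCS. Of its 18 genes measured 0 passed 2-fold in either direction, and CASP4 had the highest log2 ratio (0.81). CASP1 and GSDMC were under the read minimum. Of 12 death receptor and adaptor genes 1 was lower, the decoy receptor gene TNFRSF10D (677 to 244 reads), and TNFRSF10B had -0.05.

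Adhesion and matrix genes past 2-fold were mostly lower in the combination library. Of 9 integrin genes 4 were lower and 0 higher (median -0.83): ITGA2, the collagen receptor chain, had 1090, 1560, 395 and 293 reads, ITGB5 2615, 2092, 847 and 771, ITGA3 15718, 15676, 7061 and 6243, and ITGB4 17404, 11756, 9639 and 6935. Of 14 genes of basement membrane and matrix 6 were lower and 0 higher (median -0.71), among them the laminin chain LAMA3 (3246, 2064, 1003 and 669 reads) and thrombospondin THBS1 (35644 to 4282). Of 14 genes of proteases and plasminogen activation 5 were lower and 3 higher. The urokinase gene PLAU had 4196, 4393, 1398 and 862 reads and the inhibitor gene TIMP1 4280, 3788, 1868 and 1365, whereas MMP3 had 10, 153, 20 and 107 and ADAM17, the sheddase of EGF ligands, 1450, 2192, 1617 and 3463.

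Of 15 targets and factors of YAP and TEAD 4 were lower and 1 higher, with 14 log2 ratios below 0 and a median of -0.68. F3, tissue factor, had 19490, 11305, 7099 and 2798 reads (log2 ratio -2.86) and CCN2 163, 195, 55 and 36, but ANKRD1, another target, had 11, 15, 7 and 56. Among 17 genes of actin and serum response factor targets 3 were lower, CNN2 (6277 to 2656 reads), ACTN1 and VCL, and CNN1 was higher, with 3, 2, 84 and 53 reads. The neuronal microtubule protein gene MAP2 had 30, 184, 135 and 1001 reads (31.4-fold), and of the tubulins TUBA1A and TUBB2A were higher (log2 ratios 1.65 and 1.30). TGF-beta and BMP response genes gave 3 of 12 lower, ID1 (154, 123, 192 and 35 reads), SMAD6 (74 to 20) and SMAD7 (177 to 79), and 0 higher.

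Epithelial and mesenchymal markers gave 3 of 15 higher and 4 lower. The tight junction genes CLDN4 (3079, 4257, 2935 and 8707 reads) and OCLN (403 to 881) and VIM (202 to 500) were higher, and the keratin genes KRT8, KRT18, KRT7 and KRT15 lower. KRT18, of simple epithelium, had 41334, 38414, 14162 and 14049 reads. KRT15, a basal keratin, had 651, 330, 3846 and 102 reads, so it was high with trametinib alone and low with both drugs. The summed TPM of the 13 stratified epithelium genes was 2869.48, 2086.92, 7207.14 and 3292.37. The trametinib library thus stands apart for these genes, and its part in the values quoted for it was not tested. Within the list DSG3, a desmosomal cadherin gene, had 642, 1099, 2719 and 3888 reads (log2 ratio 2.53) and SERPINB13 36, 29, 751 and 313.

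Secreted factors changed in both directions. Of 15 angiogenesis factors and cytokines 4 were higher and 3 lower. CXCL2, a neutrophil chemokine, had 23, 96, 43 and 594 reads (log2 ratio 4.60, from 4.03 to 5.30), its relative CXCL3 4, 11, 6 and 69, and GDF15, a stress cytokine, 100, 862, 47 and 1047. For both chemokines the combination library stood well above the other 3. IL1B had 282, 151, 166 and 13 reads (-4.45), APLN, the vessel-acting peptide apelin, 251, 53, 58 and 8, and the placental growth factor gene PGF 59, 41, 7 and 8. In NF-kB signalling 1 of 16 genes was higher, the adaptor TRAF1 (44, 52, 69 and 332 reads), and 1 lower, TNFAIP2 (913, 647, 192 and 205). Of 7 complement genes 4 were higher and 1 lower: C1S had 10, 31, 119 and 321 reads, C1R 31, 34, 200 and 142, and the regulator CD55 588, 961, 839 and 1582. C4A (15 and 55 reads) is near-identical to C4B and uncertain. C3 had 55, 26, 62 and 23. Interferon and antigen presentation genes gave 2 of 20 higher, IFIT2 (17 to 85 reads) and MX1 (21 to 75), with a median of 0.36.

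Among the remaining transcription factor lists, 3 of 11 Krüppel-like factors were higher and 0 lower: KLF6 (1622, 2261, 2025 and 4641 reads), KLF4 (313, 741, 242 and 849) and KLF2 (252 to 533). The last lay at the limit, with a log2 ratio of 1.02. Of 13 circadian clock genes 1 was higher, NR1D2 (661, 871, 1004 and 1463 reads), 0 were lower, and the median was 0.10. PER2 and NR1D1 both had log2 ratios of -0.98.

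**Figure D5:**
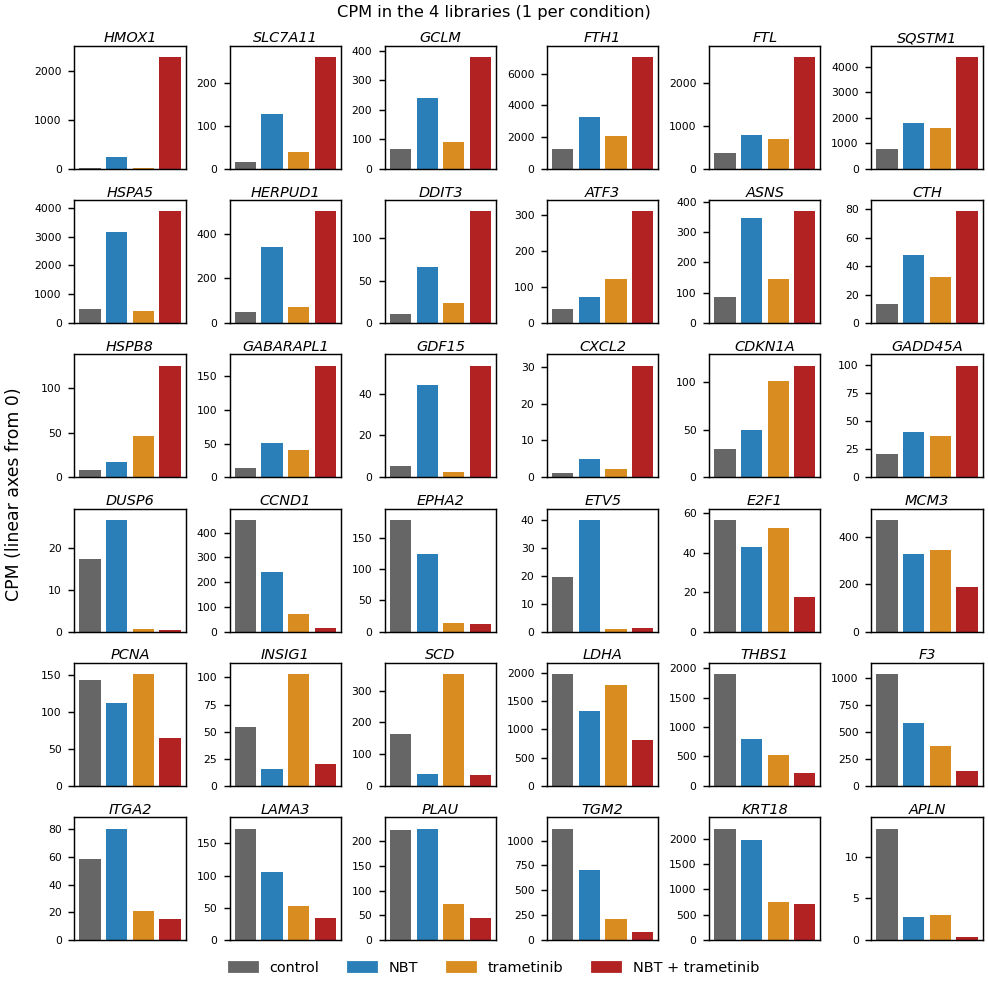
CPM, reads scaled to the library sum (linear axes from 0, scaled to each gene) for 36 genes in the 4 libraries, 1 bar per library and no error bar, since each condition has 1 library. HSPA5, HERPUD1 and ASNS are high in both libraries with NBT, DUSP6, EPHA2 and ETV5 low in both with trametinib, and HMOX1, FTL, CXCL2 and E2F1 lie farthest from the control with both drugs, HMOX1 also being high with NBT alone (121 reads in the control and 4825 with NBT).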

How the data were processed

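The authors sequenced RNA on the BGISEQ-500 platform, 1 library per condition. They deposited, per gene and per RefSeq transcript, estimated counts (expected counts, not normalized), TPM (scaled to length and to a fixed sum) and FPKM (scaled to length and mapped fragments). Per the labels, the submitters' processing notes name Bowtie2 2.2.5, RSEM 1.2.8 and hg38, with no role or order given. The estimated counts divide reads between genes and transcripts, and 54.9% of the genes compared had a count that was not whole in 1 of the 2 libraries. The deposited FPKM values were not used.

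Libraries were assigned by their treatment labels. Estimated counts were rounded and scaled to library sums. The log2 ratio of combination over control was computed with 0.5 reads added, for genes with at least 50 reads in 1 of the 2 libraries. A gene was called at a ratio of at least 2-fold. With 1 library per side no test was run and no p-value is given. Bounds against 0 use 3 reads.

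The genes compared and the 48 gene lists (856 genes, of which 839 were in the table and 737 had enough reads) were chosen with earlier results of these data known. The lists for stratified epithelium and pancreatic epithelium factors were added after the data were seen. Named genes were the 20 largest rises and falls with at least 100 reads in the higher library, the 10 largest gains and losses in TPM, list members, genes at 3 reads or fewer in 1 library and 100 or more in the other (BCL2L2-PABPN1, LURAP1L, LOC107987377, HTRA3 and PLLP), and the 5 largest transcript shifts with XBP1. FICD, SERP1, EIF2A and TRIM5 were named after their promoters were searched. Transcript shares were taken among genes with at least 200 reads in both libraries. Some genes are not reported here.

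Alternatives were TMM factors (edgeR 4.0.16), median-of-ratios size factors (DESeq2 1.42.0), TPM with a pseudocount of 0.1, 5 added reads, transcript counts summed per gene, other read minimums, a 4-fold limit and a limit on the interval. The gene ratio, its interval and the 2-fold call were tested on simulated counts that hold counting error alone. Transcript shares, promoter searches and variation between cultures were not simulated. Scripts ran in R 4.3.3 and in Python 3.11.15 with numpy 2.4.6, pandas 2.3.3, scipy 1.17.1 and matplotlib 3.10.9.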

Additional observations from a re-analysis of the deposited data

How the results depend on the processing

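The number of genes past 2-fold followed the limits by construction. Against 969 genes (511 higher, 458 lower), a minimum of 10 reads gave 1513 (849 higher and 664 lower) and a minimum of 1 read 3390 (2078 and 1312). A ratio of at least 4-fold gave 182 (101 and 81), and an interval wholly past 2-fold 606 (317 and 289). Restricting the comparison to the 5053 genes with whole estimated counts in both libraries, an alternative chosen after seeing the data, gave 525 (253 and 272). Scaling moved the median of all genes by at most 0.04 on the log2 scale and the totals to between 964 and 976 genes. Of these, 907 (TPM), 942 (size factors) and 945 (TMM) were among the 969 in the same direction. Higher genes then no longer outnumbered lower ones, with 487 higher and 488 lower (TMM), 484 and 492 (size factors) and 472 and 492 (TPM). Which side holds more genes therefore depends on the scaling. Of 1060 recomputed log2 ratios of 212 genes, 58 lay outside the counting interval of the main ratio. A change of sign was counted for the 201 genes past 2-fold only, and 0 were found. Shifts as small as those of the scaling leave little room for one, so this 0 is no check. Of the 201 genes, 7 fell short of 2-fold in at least 1 setting: AREG, BCL2, GPT2, HRK, KLF2, MYCL and POLE2. The medians of 3 of 50 lists changed sign, all with values within 0.05 of 0 (mTOR and its stress inhibitors, death receptors, and tubulins). No paired analysis was possible because each condition has 1 library. With 1 library per side the variation between cultures is unknown, and the identity of the cells is open to doubt, as given with the marker genes.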
